A study of Mus musculus with 55 samples.

Results

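Organic anion uptake and efflux transporters of the mouse liver were followed in Rnf43/Znrf3 deleted and control livers, undamaged and after liver damage. The group comprised 9 genes named by symbol: the uptake carriers Slco1a1, Slco1a4, Slco1b2 and Slco2b1 and the ATP-driven export pumps Abcc2, Abcc3, Abcc4, Abcb1a and Abcb4. The rule lists them by symbol and uses no measured value, but it was written with earlier results of these data known. All 9 were found among the 34490 gene symbols shared by the count tables of both sequencing batches.

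Hepatocytes take up bile acids, bilirubin, thyroid hormones, steroid conjugates and many drugs from the blood through organic anion transporting polypeptides (Slco genes) in the sinusoidal, blood-facing membrane. Inside the cell these compounds are often conjugated, and they leave either across the canalicular membrane into bile, which is the task of Abcc2, or back across the sinusoidal membrane into blood, through Abcc3 and Abcc4. Abcb1a is a canalicular pump for drugs and other amphipathic compounds, and Abcb4 moves phosphatidylcholine into bile, so that neither is an organic anion carrier in the strict sense. Slco1a1 is a known male-biased and Slco1a4 a known female-biased gene of the mouse liver, and several of these genes are known targets of xenobiotic and bile acid sensing nuclear receptors and of the oxidative stress factor encoded by Nfe2l2.

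The study compared R&Zdel mice with R&Zflox controls, all on a C57BL/6 background. R&Zflox mice carry floxed exons that encode the RING domain of Rnf43 and Znrf3, membrane E3 ubiquitin ligases that remove WNT receptors. In R&Zdel mice these exons were deleted in adult hepatocytes, either by tamoxifen in mice with the Alb1-CreERT2 transgene or by the AAV8-TBG-Cre virus, while controls received vehicle or AAV8-null virus. Both promoters are known as hepatocyte-specific, so the deletion was aimed at hepatocytes and not at the other cells of the liver. Undamaged livers were collected 1, 3 and 7 months (1M, 3M and 7M) after deletion, chronic damage livers 4, 50 and 170 days (d) after the last of repeated carbon tetrachloride (CCl4) injections, and regenerating livers 7 and 21 d after partial hepatectomy (PHx). RNA of whole adult liver was sequenced by the Smart-Seq2 protocol in 48 libraries with a group, 18 in batch 1 and 30 in batch 2, of which 25 were undamaged, 11 followed CCl4 and 12 followed PHx. Batch 1 held the CCl4 livers and tamoxifen-induced 3M and 7M livers, and batch 2 the virus-induced 1M, 3M and PHx livers and tamoxifen-induced 7M livers. The CCl4 groups were all tamoxifen-induced, and the study states that tamoxifen was given again to the mice of this arm with deletion. Repeated tamoxifen thus went with genotype there, and its part in the differences after CCl4 was not tested. As listed, 2 of 4 livers of each genotype at 1M, 1 R&Zdel liver at 3M and 1 R&Zflox liver at 7M (both batch 1) and 1 R&Zdel liver at PHx 21 d were female and all other livers with a group male. The labels mark both genotypes as damaged in the CCl4 groups, whereas the methods of the study state in one place that unrecombined littermates received corn oil, so the treatment of the CCl4 controls is taken from the labels.

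Libraries held 11721687 to 32168223 counts (median 22488266), so that 3 counts, the limit set by a count of 0, came to 0.0946 to 0.259 CPM (counts scaled to a library total of 1000000). No pair of libraries was identical. Whole-gene counts of Rnf43 were 19.0 to 37.9 CPM in R&Zdel and 5.12 to 19.2 CPM in R&Zflox livers of batch 1, and 26 to 68.4 against 3.39 to 58.7 CPM in batch 2. Since these counts also cover exons outside the deletion, they do not check it. None of the 8 hepatocyte markers was at 0 in any group. In whole liver RNA a change in the share of a cell type cannot be told apart from a change in RNA per cell. In the check of listed sex, 1 library of 48, an R&Zflox PHx 7 d liver listed as male, held 381 CPM of Xist and 0.0601 CPM of the Y-linked genes, and the members' values after PHx at 7 d that move with it are also given with this liver taken as female or left out.

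The regions upstream of 4 of the members are shown because the results turn on these genes: Slco1a1 and Slco1a4 lie in the Slco cluster of chromosome 6 and differed in opposite directions between the sexes, Slco1b2 was higher in R&Zdel livers before damage and after PHx, and Abcc4 was the member with the largest rise in R&Zdel livers at 4 d after CCl4. Each run holds the 250 bases before the RefSeq transcription start (GRCm38.p6), 5′ to 3′ on the strand of the gene. In the mm10 annotation of the count tables, Slco1a1 spans chr6:141907281-141946962, Slco1a4 chr6:141805438-141856284, Slco1b2 chr6:141629452-141686646 and Abcc4 chr14:118482692-118707856, so that the RefSeq start used here lies inside the span of the last 3. The window of Slco1a1 is at chr6:141946963-141947212 and that of Slco1a4 at chr6:141856221-141856470, both on the minus strand, that of Slco1b2 is at chr6:141629268-141629517 on the plus strand, and the first of 2 for Abcc4 is at chr14:118706220-118706469 on the minus strand. Capitals mark matches to the motifs listed after the sequences.
Slco1a1: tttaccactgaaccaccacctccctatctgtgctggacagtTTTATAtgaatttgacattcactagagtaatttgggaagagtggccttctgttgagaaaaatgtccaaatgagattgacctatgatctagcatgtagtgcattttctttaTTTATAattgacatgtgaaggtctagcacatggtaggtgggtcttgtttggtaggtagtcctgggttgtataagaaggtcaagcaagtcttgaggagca
Slco1a4: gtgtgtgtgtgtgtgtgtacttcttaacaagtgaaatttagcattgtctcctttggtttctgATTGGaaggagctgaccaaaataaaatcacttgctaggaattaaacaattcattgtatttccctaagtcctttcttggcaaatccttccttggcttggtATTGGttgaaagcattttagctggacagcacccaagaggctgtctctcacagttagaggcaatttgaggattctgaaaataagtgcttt
Slco1b2: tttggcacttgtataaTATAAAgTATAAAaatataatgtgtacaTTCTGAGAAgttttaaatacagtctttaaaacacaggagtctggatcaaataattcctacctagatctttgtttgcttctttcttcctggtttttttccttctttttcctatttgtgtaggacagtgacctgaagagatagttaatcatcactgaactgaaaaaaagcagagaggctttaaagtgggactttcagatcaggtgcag
Abcc4: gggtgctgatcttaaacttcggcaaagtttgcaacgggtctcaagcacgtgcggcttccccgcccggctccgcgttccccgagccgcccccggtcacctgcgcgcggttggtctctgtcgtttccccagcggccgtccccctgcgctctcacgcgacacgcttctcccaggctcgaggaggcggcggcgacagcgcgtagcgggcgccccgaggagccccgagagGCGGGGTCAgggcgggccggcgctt

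A TATA box was searched as TATAAA, which 12.4 percent of the 32851 RefSeq windows of this length hold. The CCAAT box (33.8 percent of windows) was searched by its letters, a STAT5 element as TTCNNNGAA (7.02 percent), an antioxidant response element as TGACNNNGC (10.2 percent) and a TCF/LEF element as CTTTGAT (3.21 percent). Both strands were read, so a match on the opposite strand stands as its reverse complement, and no 2 matches in the windows shown overlap. The Slco1a1 window held TATA box letters at −209 and −99, counted from the start site, and the Slco1a4 window held CCAAT letters at −188 and −89. In the Slco1b2 window a STAT5 match stood at −206, beside TATA box letters at −234 and −227. An antioxidant response element match stood at −25 in the Abcc4 window shown, at −23 in the other Abcc4 window, and at −98 in the Abcc2 window. No window of the 8 members with an entry held the TCF/LEF letters, which says only that these letters are not in these windows. Slco2b1 had 3 entries and Abcc4 had 2, and Abcc3 had none.

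Per kilobase of exon, and hence comparable between genes, the carriers spanned a wide range in the 4 undamaged R&Zflox livers of batch 1. Slco1b2, the main hepatic carrier of the family and taker-up of bilirubin and bile acids, stood highest at 162 ± 4.61 CPM per kb (SD, n = 4). Slco1a1 (45.7 ± 30.9), Slco2b1 (25.6 ± 3.38), Abcc3 (23.9 ± 2.93) and Abcb4 (21.2 ± 4.90) followed. Slco2b1, Abcc3 and Abcb4 did not differ beyond their spread. The spread of Slco1a1 held 1 female liver at 0.946 CPM per kb, and in the 2 R&Zflox 3M livers, both male, the means were 63.1 for Slco1a1 and 24.2 for Slco2b1. Abcc2 (10.9 ± 1.47) and Slco1a4 (9.71 ± 12.4) came next, with the wide SD of Slco1a1 and Slco1a4 set by the 1 female liver. Abcb1a (0.243 ± 0.192) and Abcc4 (0.223 ± 0.196) were the lowest. Abcc4 had a count of 0 in 10 and Abcb1a in 5 of the 30 batch 2 libraries, while the other 7 members were above 1 CPM in every library.

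**Figure D1:**
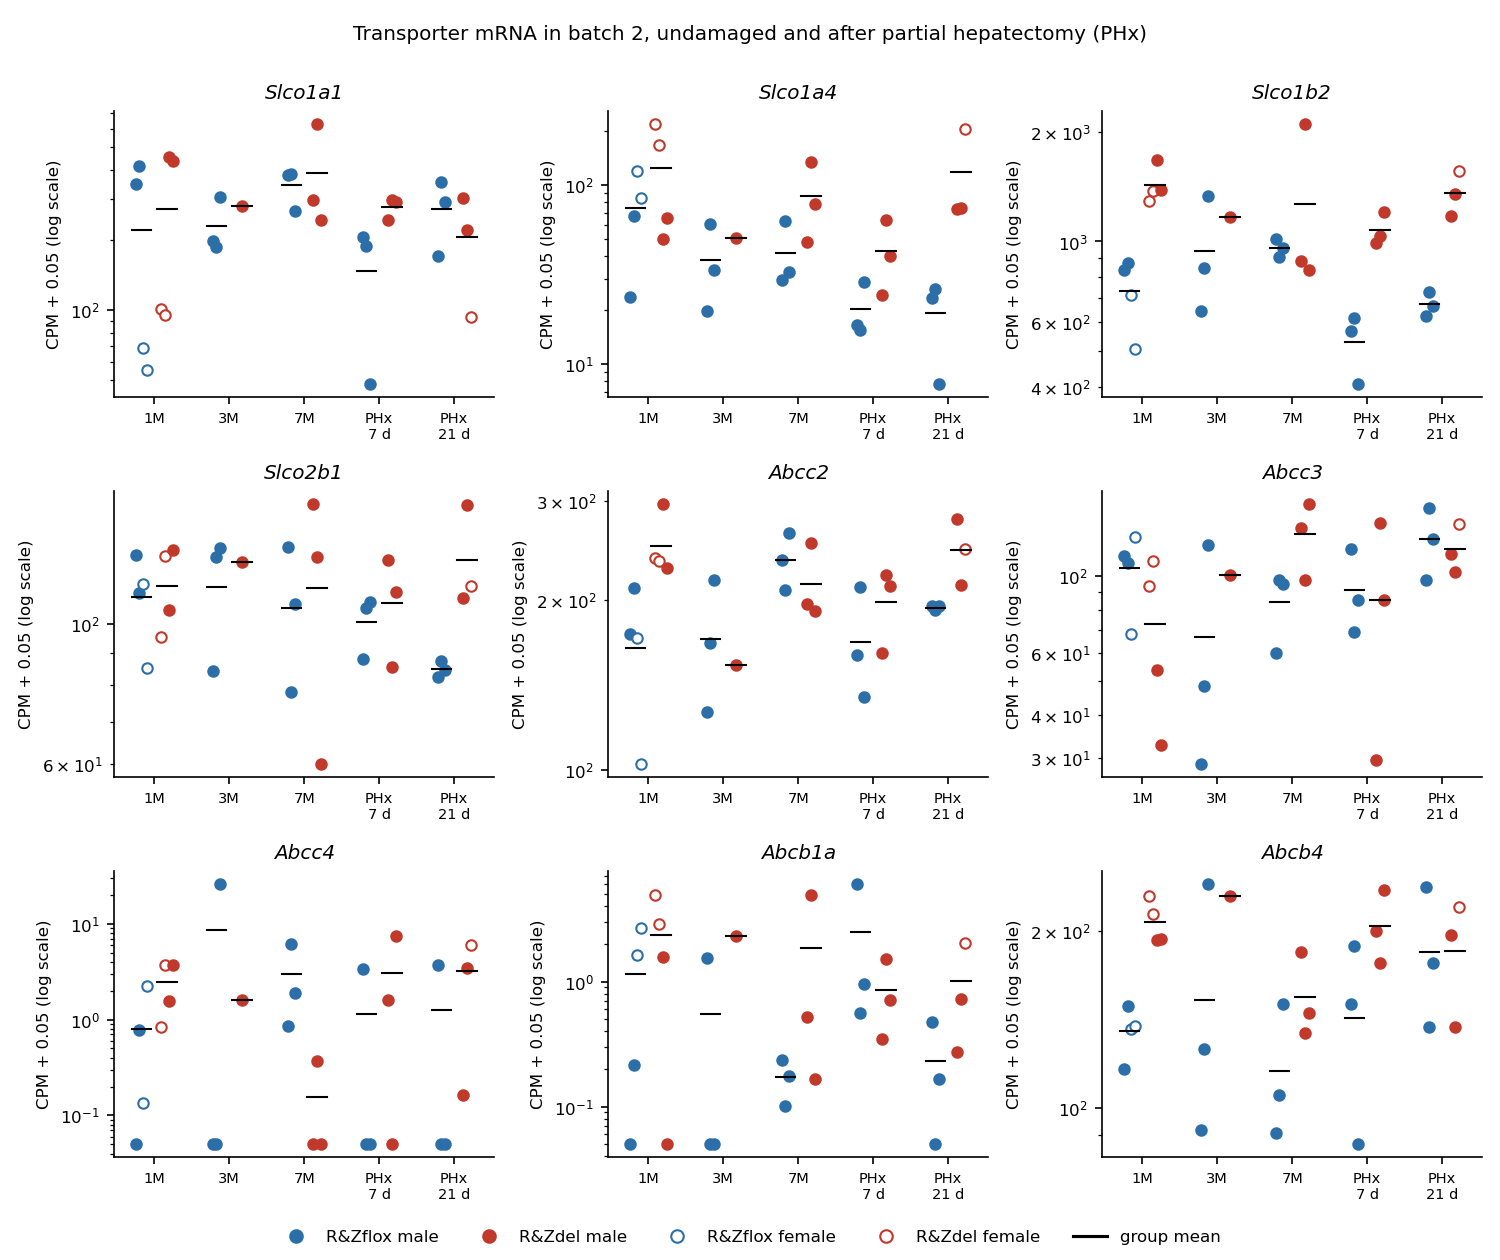
CPM on a log scale (0.05 added for display) of the 9 members in every batch 2 library, by time after deletion or PHx; filled symbols are male and open symbols female as listed, blue is R&Zflox, red is R&Zdel and bars are group means. In the R&Zdel groups at 1M and at 7 and 21 d after PHx every Slco1b2 value lies above every R&Zflox value of the same time. Abcc4 scatters from 0 to 25.8 CPM, the highest from 1 R&Zflox 3M liver, and Abcb1a from 0 to 5.95 CPM.

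In undamaged livers, the uptake carrier Slco1b2 was moderately higher in R&Zdel than in R&Zflox. At 1M its levels were 1293, 1379, 1668 and 1387 CPM in R&Zdel against 835, 873, 713 and 509 CPM in R&Zflox, without overlap. At 3M they were 1165 CPM in the batch 2 and 853 CPM in the batch 1 R&Zdel liver, against 643, 846 and 1335 CPM and 562 and 540 CPM in R&Zflox of the same batches. At 7M the R&Zdel livers held 881, 2097 and 834 CPM in batch 2 and 1033 and 778 CPM in batch 1, and the R&Zflox livers 1013, 905 and 961 CPM and 554 and 527 CPM. The genotypes were thus apart in batch 1 and overlapped in batch 2 at 3M and 7M. Averaged over the 3 time points with sex and batch in the model, the log2 fold change was 0.64 ± 0.13 (SE, 1.56-fold, adjusted p = 0.0060, edgeR quasi-likelihood test), which passed the limit on the adjusted p of 0.1 but not the study's second limit of an absolute log2 fold change above 1.

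The phospholipid exporter Abcb4 showed the same pattern at a similar size. At 1M it measured 229, 214, 193 and 193 CPM in R&Zdel and 116, 149, 136 and 138 CPM in R&Zflox. In batch 1, where the deletion was followed at 3M, 7M and after CCl4, all 9 R&Zdel livers (127 to 175 CPM) lay above all 9 R&Zflox livers (72.4 to 118 CPM), a separation that 0.698 percent of 12608 genes had. Raw CPM of R&Zdel lay above R&Zflox for many genes in part of these groups (67.6 percent at 4 d and 41.3 percent at 170 d after CCl4), and no fitted difference of Abcb4 passed at the times after CCl4. In batch 2 at 3M the R&Zdel liver held 229 CPM and the R&Zflox livers 91.4, 126 and 240 CPM, and at 7M the values were 184, 134 and 145 CPM against 90.5, 105 and 150 CPM, so that the groups overlapped. The averaged log2 fold change was 0.55 ± 0.13 (1.47-fold, adjusted p = 0.0288), again under the fold limit. Without the R&Zdel 3M liver of batch 2 the adjusted p of Abcb4 was 0.294, and in male mice alone that of Slco1b2 was 0.249 (log2 fold change 0.54) and that of Abcb4 0.237 (0.59). The hepatocyte markers moved the other way: 7 of 8 had a lower fitted level in R&Zdel, of which Alb was called (−1.39 ± 0.12), and at 1M they summed to 68363 to 88374 CPM in R&Zdel and 118043 to 134987 CPM in R&Zflox. Such a sum follows the most abundant markers and does not show a drop in each of the markers. Their part in the levels of the members was not tested.

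By both limits together 0 of 9 members were called in the averaged comparison, in which 1.2 percent of 12848 genes were. By the adjusted p alone the 2 members above passed, beside 2.58 percent of all genes. At 1M, 3M and 7M taken singly 0 of 9 members were called, where 0.436, 0.226 and 0.451 percent of genes were. At these times the 9 members had median log2 fold changes of 0.43, 0.49 and 0.53, beside medians of 0.01, −0.09 and −0.02 over all genes tested. These medians carry no test, take in the sparse Abcc4 and Abcb1a, and are of genes chosen with earlier results known. The comparisons at 1M, 3M and 7M and their average share the same libraries.

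For the other carriers the averaged log2 fold changes were 0.66 ± 0.30 for Slco1a1 (adjusted p = 0.364), 0.66 ± 0.25 for Slco1a4 (adjusted p = 0.248) and 0.12 ± 0.14 for Slco2b1 (adjusted p = 0.823), a carrier of broad tissue range that takes up steroid sulfates. Among the pumps, Abcc2, which exports bilirubin glucuronides into bile, had 0.29 ± 0.12 (adjusted p = 0.316), and Abcc3, which exports glucuronides into blood, had 0.03 ± 0.22 (adjusted p = 0.984). Abcc2 stood apart at 1M, with 237, 235, 296 and 228 CPM in R&Zdel against 175, 210, 172 and 103 CPM in R&Zflox, but the fitted difference of 0.43 ± 0.20 did not pass (adjusted p = 0.621). Slco1b2, Abcc2 and Abcb4 were the 3 members without overlap at 1M, beside 4.19 percent of genes with R&Zdel above R&Zflox. Abcb1a (1.87 ± 0.97, adjusted p = 0.454) and Abcc4 (−0.56 ± 1.23, adjusted p = 0.93) were too sparse for a closer statement. The highest Abcc4 value of batch 2, 25.8 CPM from 303 counts, came from 1 R&Zflox 3M liver whose group mates in that batch held 0 counts.

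Slco1a1 and Slco1a4 were sex-biased in opposite directions. In the undamaged batch 2 livers Slco1a1 measured 55.0 and 68.7 CPM in female R&Zflox, 94.9 and 101 CPM in female R&Zdel, 186 to 413 CPM (median 327) in 8 male R&Zflox and 243 to 626 CPM (median 365) in 6 male R&Zdel livers. Every female was thus below every male. Slco1a4 ran the other way, with 84.8 and 120 CPM in female R&Zflox and 167 and 219 CPM in female R&Zdel livers, against 19.7 to 67.3 CPM (median 33.0) in male R&Zflox and 47.8 to 134 CPM (median 58.1) in male R&Zdel livers. Females overlapped males for Slco1a4 only through 1 male R&Zdel 7M liver at 134 CPM. In batch 1 the female R&Zflox 7M liver held 3.75 CPM of Slco1a1 and 132 CPM of Slco1a4, and the female R&Zdel 3M liver 138 CPM and 107 CPM. Among the batch 1 males, Slco1a1 measured 215 to 286 CPM in R&Zflox and 185 and 226 CPM in R&Zdel.

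In the test of sex, 2 of 9 members were called, beside 0.918 percent of all genes. Slco1a1 was lower in females by a log2 fold change of −2.66 ± 0.44 (6.3-fold, adjusted p = 0.000701) and Slco1a4 higher by 1.80 ± 0.35 (3.49-fold, adjusted p = 0.0045). The 7 other members did not pass (adjusted p = 0.846 to 1). The lists of known sex-biased liver genes checked the listed sex: 8 of 8 female-biased genes were called higher and 7 of 8 male-biased genes lower in females. Whether sex and genotype interact was tested for each member and none was called, beside 0.0389 percent of genes. For Slco1a1 the interaction was 2.04 ± 0.75 (adjusted p = 0.764), and it was 0.81 (adjusted p = 0.831) without the female R&Zflox 7M liver at 3.75 CPM.

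**Figure D2:**
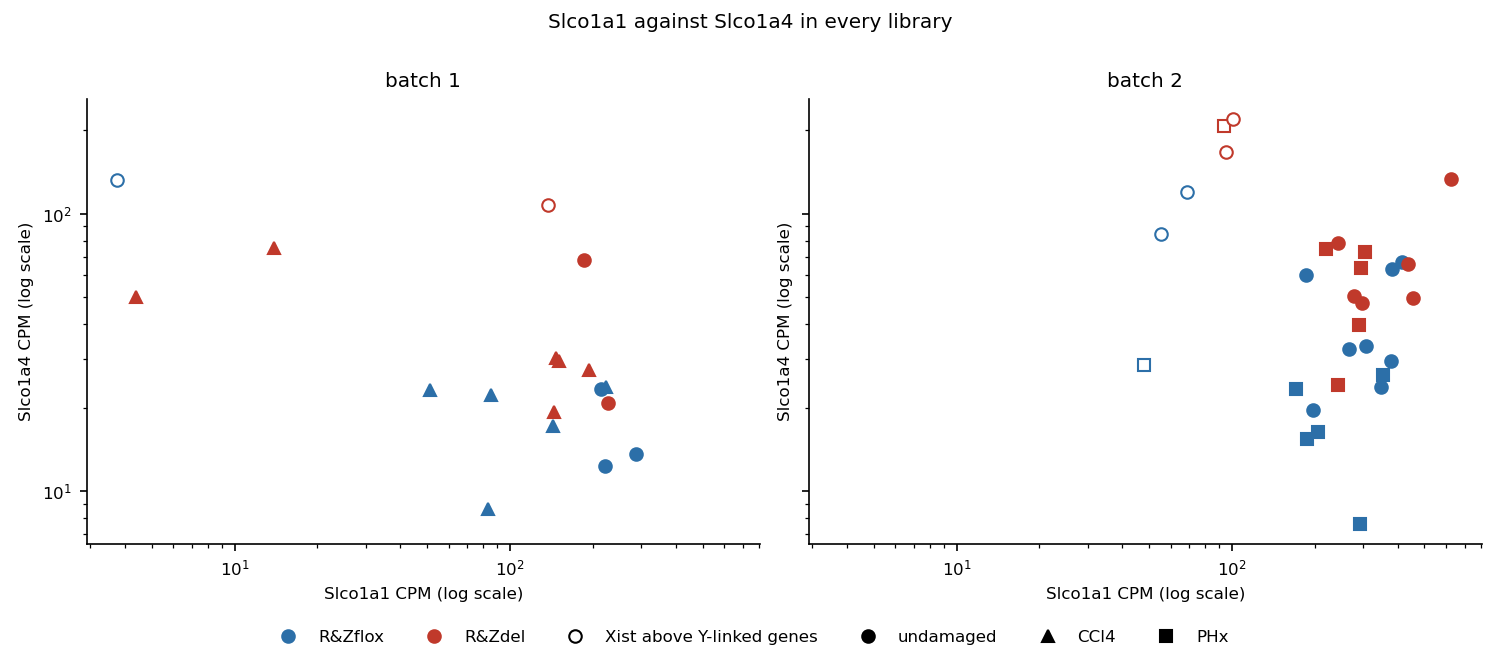
Slco1a4 against Slco1a1 in CPM, both on log scales, in every grouped library of batch 1 (left) and batch 2 (right); open symbols are livers with Xist above the Y-linked genes, and the shape gives the condition. In batch 2 the open symbols sit below the filled ones in Slco1a1 and, but for the R&Zflox PHx 7 d liver at 28.6 CPM, at high Slco1a4. In batch 1 the female R&Zflox 7M liver is at 3.75 CPM of Slco1a1. The female R&Zdel 3M liver at 138 CPM lies among the males after CCl4 in Slco1a1 only. At 107 CPM of Slco1a4 it is above every male of the batch (at most 75.3 CPM). The R&Zdel livers at 4 d after CCl4 (14 and 4.4 CPM of Slco1a1), which are male, lie toward the corner of the female R&Zflox 7M liver.

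At 4 d after CCl4 the members differed most between genotypes, and they did so in both directions. Slco1a1 fell: it measured 85.1 and 51.3 CPM in R&Zflox and 14 and 4.4 CPM in R&Zdel livers, a log2 fold change of −3.37 ± 0.55 (10.3-fold, adjusted p = 0.0058). The basolateral pump Abcc4, which exports bile acids and cyclic nucleotides, rose from 1.20 and 2.12 CPM (35 and 61 counts) to 18.9 and 20.1 CPM (500 and 589 counts), a log2 fold change of 3.05 ± 0.44 (8.28-fold, adjusted p = 0.0036). The drug pump Abcb1a rose from 0.927 and 1.08 CPM to 7.49 and 8.64 CPM (2.5 ± 0.68, 5.64-fold, adjusted p = 0.0346). These 3 of 9 members were called, where 15.2 percent of 11358 genes were, 10.3 percent higher and 4.95 percent lower. Each group held 2 livers, and the call of Abcb1a was lost without either R&Zflox liver or without the second R&Zdel liver (adjusted p = 0.12 to 0.183), with a log2 fold change of 2.40 to 2.58.

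By the adjusted p alone 5 of 9 members passed, where 27.6 percent of genes did. The 2 past the adjusted p but not the fold limit were Slco2b1, at 93.9 and 96.3 CPM in R&Zflox against 69.4 and 68.8 CPM in R&Zdel (−0.96 ± 0.17, adjusted p = 0.0085), and Slco1a4, at 22.3 and 23.2 CPM against 75.3 and 50.1 CPM (0.98 ± 0.32, adjusted p = 0.0661). Slco1a4 lost this in 3 of the 4 fits that leave out a liver of these groups (adjusted p = 0.204 to 0.329). No difference passed for Slco1b2, at 402 and 291 CPM against 388 and 316 CPM (−0.48 ± 0.24, adjusted p = 0.183). The CPM of Abcc2 (53.6 and 54.7 against 106 and 85.2), Abcc3 (53.9 and 50.4 against 104 and 96.9) and Abcb4 (88.2 and 73.7 against 175 and 144) lay higher in both R&Zdel livers, as did those of 67.6 percent of the genes tested. After scaling across all genes their log2 fold changes were 0.32 ± 0.18, 0.44 ± 0.21 and 0.48 ± 0.20 (adjusted p = 0.232, 0.172 and 0.118). Scaling by the total count alone moved the median of all genes by 0.51 on the log2 scale and gave 0.82, 0.95 and 0.98 for these 3 genes, past the adjusted p limit.

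Other features of these 2 R&Zdel livers moved with the members. The 7 cholangiocyte markers summed to 3673 to 6554 CPM, against 99.3 to 172 CPM in R&Zflox, and 6 of 6 tested were called higher, with Epcam at 94.9 and 174 CPM against 0.893 and 1.08 CPM. None of the 7 markers was at 0 in either group. Of the male-biased genes 5 of 7 tested were called lower, among them Cyp4a12a (−5.11 ± 0.60), and both tested female-biased genes were called higher, with Cyp2a4 at 361 and 71.1 CPM against 0.481 and 6.13 CPM, in livers whose listed sex, Xist and Y-linked counts were male. Hepatocyte markers summed to 78447 to 95660 CPM against 100159 to 104285 CPM, with 1 of 8 called lower. Stellate markers had 2 of 8 called higher (Col1a1 and Col3a1), with sums of 406 to 1146 CPM against 230 to 338 CPM. The part of these changes in the levels of Slco1a1, Abcc4 and the other members was not tested.

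**Figure D3:**
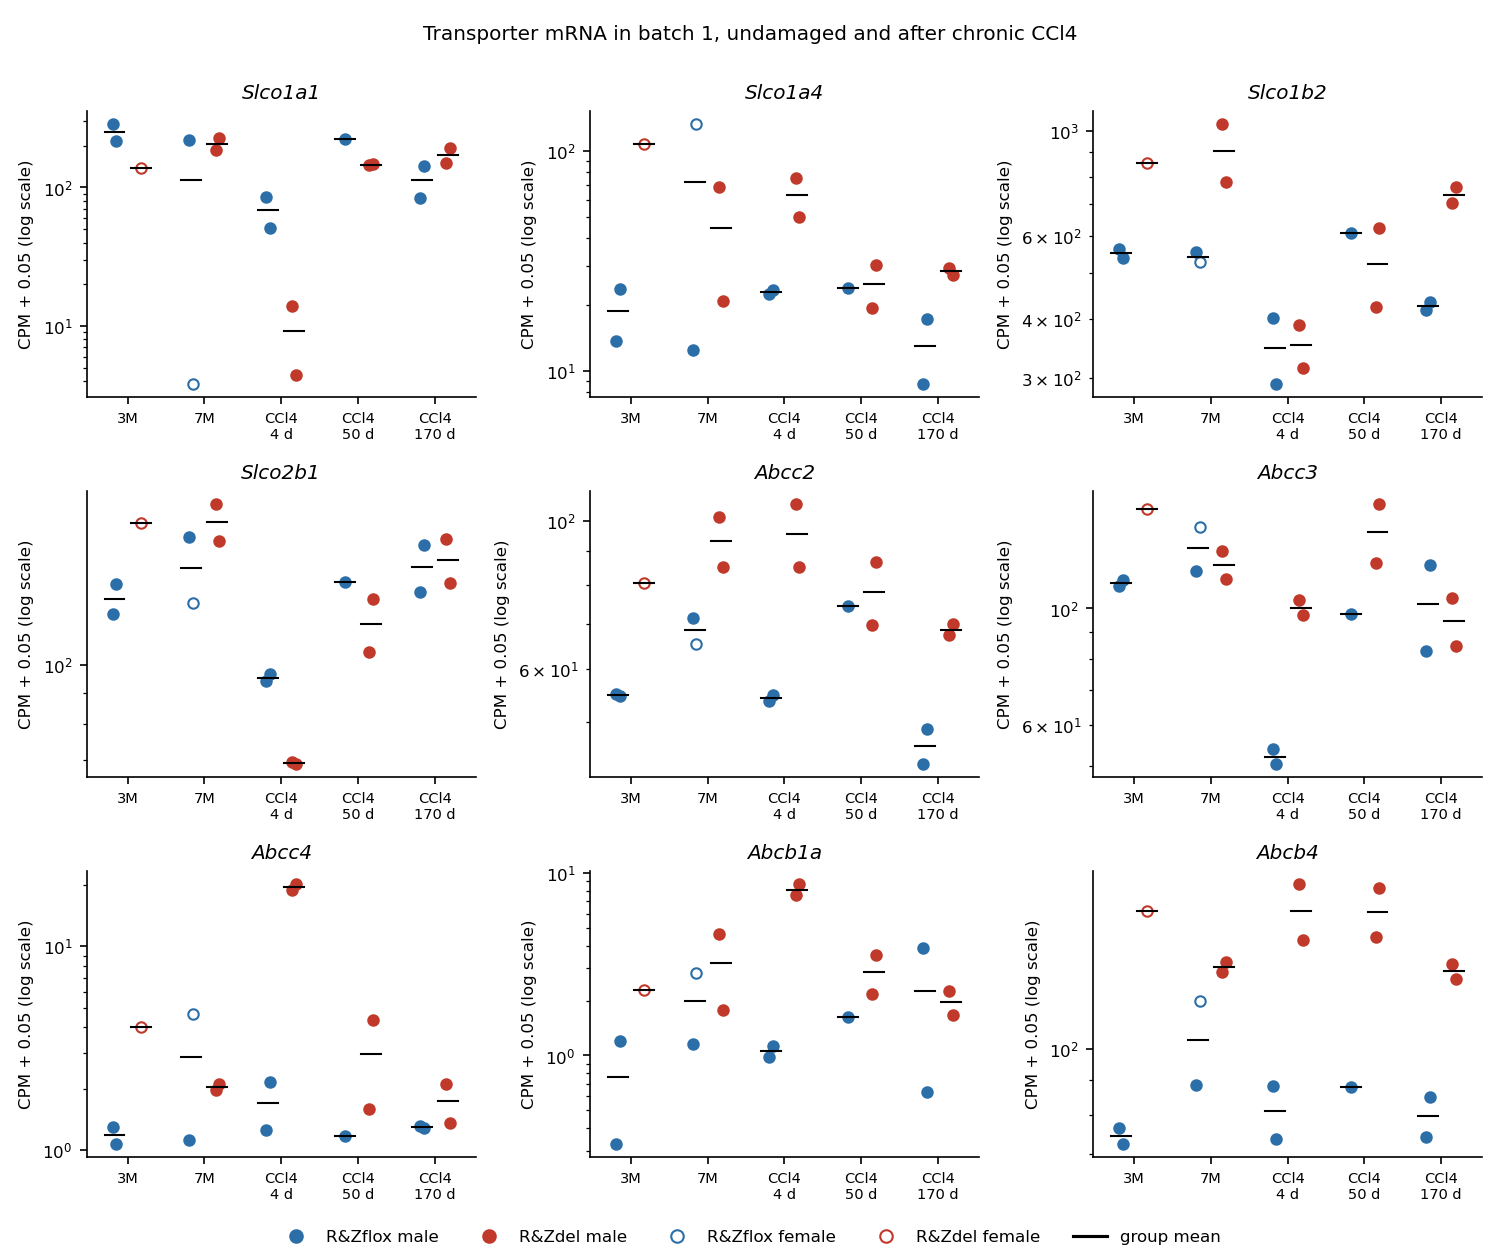
CPM on a log scale (0.05 added for display) of the 9 members in every batch 1 library, undamaged at 3M and 7M and at 4, 50 and 170 d after CCl4; symbols are as in the plot of batch 2 and bars are group means. Slco1a1 is lowest and Abcc4 (18.9 and 20.1 CPM) and Abcb1a (7.49 and 8.64 CPM) are highest in the R&Zdel livers at 4 d among the male livers, and Abcb4 lies higher in R&Zdel (127 to 175 CPM) than in R&Zflox (72.4 to 118 CPM) throughout.

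At later recovery times no member was called. At 50 d, where 5.58 percent of genes were called against 1 R&Zflox liver, whose spread was taken from the other groups, Slco1a1 was at 223 CPM in R&Zflox and 145 and 147 CPM in R&Zdel, Abcc4 at 1.12 CPM against 1.55 and 4.29 CPM, and Abcb1a at 1.58 CPM against 2.12 and 3.51 CPM (adjusted p = 0.428, 0.286 and 0.717). At 170 d, where 0.625 percent of genes were called, Slco1a1 was at 83.5 and 144 CPM against 151 and 194 CPM, and Abcc4 at 1.26 and 1.24 CPM against 2.06 and 1.31 CPM. Slco1a4 measured 8.64 and 17.2 CPM in R&Zflox and 29.4 and 27.3 CPM in R&Zdel at 170 d (0.92 ± 0.33, adjusted p = 0.401), and it was called without the R&Zflox liver at 17.2 CPM (1.5, adjusted p = 0.055). Slco1a1, Slco1a4, Slco1b2, Abcc2, Abcc4 and Abcb4 had every R&Zdel value above every R&Zflox value at this time, as did 41.3 percent of genes.

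Compared with the undamaged 3M and 7M livers of the same batch, Slco1a1 was lower at 4 d after CCl4 in both genotypes, and the difference was larger in R&Zdel. The reference was the mean of the 3M and 7M groups. By the study's timeline the 4 d livers were collected sooner after deletion, so CCl4 and time after deletion changed together in these comparisons. The part of that time was not tested. In R&Zflox livers at 4 d, 2 of 9 members were called (5.09 percent of 12608 genes were): Slco1a1 at −1.89 ± 0.46 (adjusted p = 0.046) and the efflux pump Abcc3, at 53.9 and 50.4 CPM against 110 to 143 CPM undamaged, at −1.25 ± 0.21 (adjusted p = 0.0093). Slco1b2 (−0.78 ± 0.23, adjusted p = 0.0943) and Slco2b1 (−0.71 ± 0.18, adjusted p = 0.059) passed the adjusted p only, as part of the 6.83 percent of genes that passed it. Without the second R&Zflox liver at 4 d none of the 4 passed (Slco1a1 −1.55, adjusted p = 0.403, and Abcc3 −1.18, adjusted p = 0.132), and without the male R&Zflox 7M liver Slco1a1 had 1.20. In R&Zdel livers 5 of 9 members were called (31.4 percent of genes were). Slco1a1 fell by 7.82 ± 0.68 on the log2 scale (adjusted p = 0.000175), from 138 to 226 CPM to 14 and 4.4 CPM. That fitted size includes the sex term, which for every gene in this fit rested on 1 male and 1 female R&Zflox 7M liver. The female of this pair held 3.75 CPM of Slco1a1. With the female R&Zdel 3M liver left out, the log2 fold change of Slco1a1 was −5.07. Slco1b2 fell by 2.08 ± 0.30 (adjusted p = 0.0010) from 778 to 1033 CPM to 388 and 316 CPM. Slco2b1 fell by 2.20 ± 0.23 (adjusted p = 0.0003) from 159 to 182 CPM to 69.4 and 68.8 CPM, both also on the log2 scale. Abcc3 was also lower (−1.03 ± 0.26, adjusted p = 0.0115) and Abcc4 higher (3.11 ± 0.47, adjusted p = 0.0013). Abcb4 (−0.37 ± 0.23) and Slco1a4 (0.85 ± 0.60) did not pass. Without the female R&Zdel 3M liver Abcc2 had −0.59 (adjusted p = 0.0347), under the fold limit, and Abcb1a had 0.69 (adjusted p = 0.492).

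The test of the difference between these CCl4 effects called 4 of 9 members, beside 17.2 percent of genes. The difference, R&Zdel minus R&Zflox, was −5.93 ± 0.68 for Slco1a1 (adjusted p = 0.0018), −1.30 ± 0.33 for Slco1b2 (adjusted p = 0.0287), −1.49 ± 0.26 for Slco2b1 (adjusted p = 0.0085) and 2.63 ± 0.53 for Abcc4 (adjusted p = 0.0136). Among the undamaged livers of batch 1, 2 were female, and the sex term took its size for Slco1a1 from the R&Zflox liver at 3.75 CPM. Without that liver the values were −2.85 for Slco1a1 (adjusted p = 0.0338) and 1.73 for Abcc4 (adjusted p = 0.084). In male mice alone they were −3.19 for Slco1a1 (adjusted p = 0.0275), −1.21 for Slco1b2 (adjusted p = 0.0668), −1.23 for Slco2b1 (adjusted p = 0.0332) and 2.17 for Abcc4 (adjusted p = 0.0545), and within R&Zdel −5.07 for Slco1a1 and −0.90 for Abcc3. Slco1b2 was no longer past the limit without the first R&Zflox or the second R&Zdel liver at 4 d (adjusted p = 0.129 and 0.1295) or with the total count as the only scaling (−0.68, adjusted p = 0.122). That scaling moved the median of all genes in this contrast by 0.62 on the log2 scale and in R&Zdel by 0.73, where Abcc3 then had −0.31 (adjusted p = 0.321).

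After partial hepatectomy Slco1b2 again stood higher in R&Zdel livers. At 7 d it measured 989, 1037 and 1201 CPM in R&Zdel and 570, 616 and 406 CPM in R&Zflox, and at 21 d 1178, 1348 and 1559 CPM against 624, 727 and 667 CPM. The groups did not overlap at either time. The log2 fold changes were 0.93 ± 0.18 (1.9-fold, adjusted p = 0.0211) and 0.96 ± 0.18 (1.95-fold, adjusted p = 0.0186), just under the fold limit, where 0.352 and 0.423 percent of genes passed the adjusted p of 0.1. At 7 d, 0 of 9 members passed the study's PHx limits (unadjusted p under 0.05 and absolute log2 fold change above 1), where 3.99 percent of genes did. Without the R&Zflox liver at 406 CPM, whose sex markers went against its label, Slco1b2 had 0.77 (adjusted p = 0.14), and with that liver taken as female 0.84 (adjusted p = 0.0266). Over the livers left out singly the adjusted p of Slco1b2 rose to at most 0.14 at 7 d, where it was above 0.1 also without the third R&Zdel liver, and to 0.114 at 21 d, where it was above 0.1 without the second R&Zdel or the first R&Zflox liver.

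At 21 d Slco1a4 was the 1 member past the PHx limits, beside 6.56 percent of genes. It measured 73.1, 74.7 and 207 CPM in R&Zdel, the highest in the female of the group, and 23.3, 26.3 and 7.65 CPM in R&Zflox (1.85 ± 0.46, 3.6-fold, adjusted p = 0.142). Its log2 fold change was 1.91 without the female, 1.47 without the R&Zflox liver at 7.65 CPM and 1.88 (adjusted p = 0.0915) with the PHx 7 d liver that held Xist taken as female. At 7 d Slco1a4 was at 24.2, 63.6 and 39.9 CPM against 16.4, 15.5 and 28.6 CPM (0.99 ± 0.44, adjusted p = 0.817), and Slco1a1 at 243, 295 and 289 CPM against 206, 187 and 48.0 CPM (0.82 ± 0.36, adjusted p = 0.817). The 48.0 CPM came from the R&Zflox liver with Xist, and with that liver taken as female the values were 1.46 for Slco1a4, then past the PHx limits beside 4.09 percent of genes, and 0.33 for Slco1a1. Without it they were 1.34, also past these limits beside 3.18 percent of genes, and 0.40. The 8 female-biased genes summed to 1193 CPM in that liver, to 0.496 and 0.758 CPM in the other R&Zflox livers and to 0.464 to 3.62 CPM in R&Zdel. With the sex as listed all 8 were called lower in R&Zdel, with the liver taken as female 0 were called lower and 3 higher, and without it 0 lower and 1 higher. The stellate markers summed to 68 to 93 CPM against 189.8 to 266 CPM, with 3 of 8 called lower as listed, 2 with the liver taken as female and 1 without it. The part of these markers in the members' values was not tested.

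The 7 members other than Slco1a4 and Slco1b2 did not pass at 21 d. Slco2b1 (110, 154 and 115 CPM against 82.3, 87.1 and 84.6 CPM) and Abcc2 (278, 213 and 246 CPM against 195, 192 and 195 CPM) had no overlap at 21 d, with log2 fold changes of 0.52 ± 0.24 and 0.30 ± 0.22 (adjusted p = 0.562 and 0.738). Members without overlap were Slco1a1 and Slco1b2 at 7 d, beside 7.37 percent of genes, and Slco1a4, Slco1b2, Slco2b1 and Abcc2 at 21 d, beside 8.12 percent. Abcc4 and Abcb1a ranged from 0 to 7.44 CPM and from 0 to 5.95 CPM over all PHx livers, and no difference passed for either at these low and uneven counts.

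Against the undamaged 1M livers, which entered the same fit, PHx itself called none of the 9 members in either genotype, where 0.0235 percent (R&Zflox) and 0.0157 percent (R&Zdel) of genes were called at 7 d and 0 percent at 21 d. The values with the smallest p were those of the R&Zflox livers at 7 d, −0.61 ± 0.18 for Slco1b2 (adjusted p = 0.635) and −1.22 ± 0.37 for Slco1a1 (adjusted p = 0.636), a group that holds the liver whose sex markers went against its label. With that liver taken as female Slco1a4 had the smallest p (−1.61 ± 0.42, adjusted p = 0.562, against −1.09 as listed), Slco1a1 had −0.71 (adjusted p = 0.736) and Slco1b2 −0.54 (adjusted p = 0.686). Without it the values were −1.44, −0.81 and −0.45 (adjusted p = 1 for each). The genes called at 7 d numbered 3 in R&Zflox and 2 in R&Zdel as listed, 0 and 5 with the liver taken as female, and 1 and 5 without it. In R&Zdel Slco1b2 had −0.49 ± 0.18 at 7 d (adjusted p = 0.967) and −0.04 ± 0.16 at 21 d (adjusted p = 1). The difference of the PHx effects between genotypes called 0 of 12773 genes by edgeR at both times, with 607 and 736 genes (4.75 and 5.76 percent) at an unadjusted p under 0.05 and 136 and 235 called by DESeq2, and for Slco1b2 it was 0.12 ± 0.23 at 7 d (0.02 with the liver taken as female and −0.04 without it) and 0.15 ± 0.24 at 21 d.

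**Figure D4:**
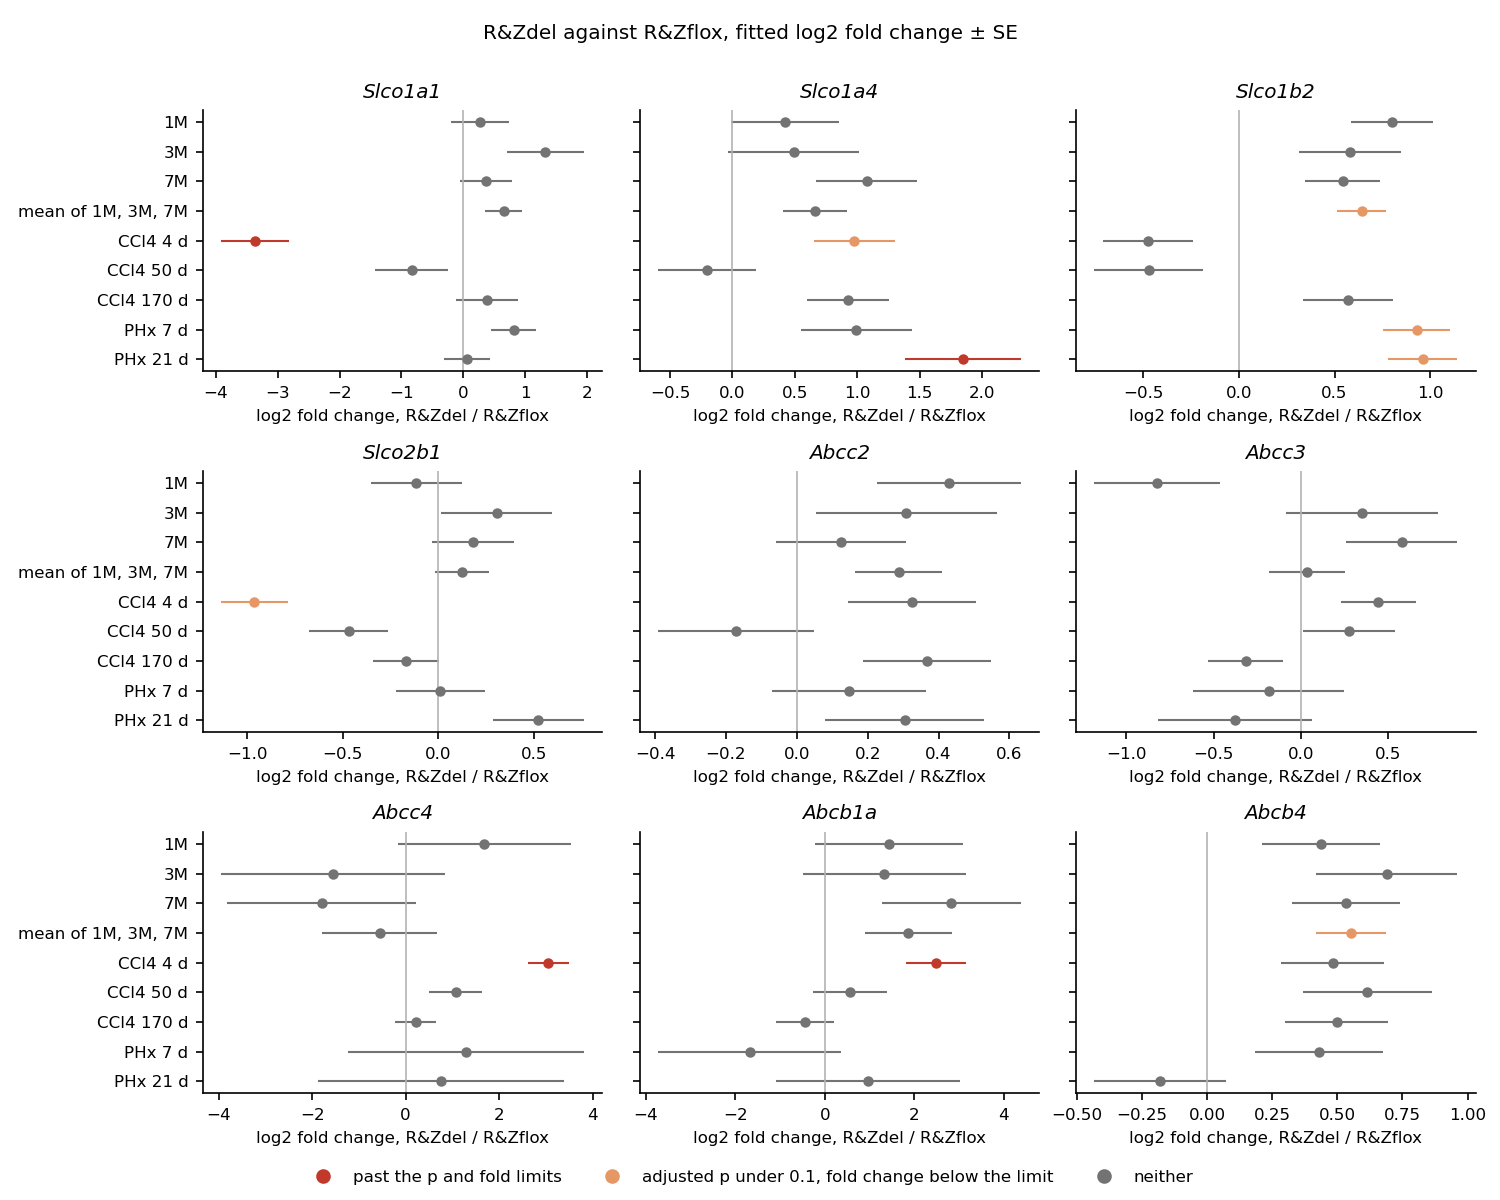
Fitted log2 fold change of R&Zdel against R&Zflox with its SE for the 9 members in each condition (each panel has its own scale); red marks values past the p and fold limits of that comparison (unadjusted p for PHx, adjusted p otherwise) and orange those past the adjusted p only. Slco1b2 is positive in every comparison but CCl4 at 4 and 50 d, where it is −0.48 and −0.47.

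Other transporters and the receptors that control them were counted alongside. In the average of the undamaged livers 1 of the 8 other uptake carriers tested was called lower (Slc22a7, an organic anion carrier, −1.87 ± 0.30), and of 12 other exporters 1 was called higher (the sterol exporter Abcg8, 1.06 ± 0.23). None of the 13 nuclear receptors and other sensors was called there, and none of their 12 target enzymes. At 4 d after CCl4, 2 of 8 other uptake carriers tested were called higher and 3 lower, among them Slco3a1 (2.35 ± 0.44), Slco2a1 (−2.06 ± 0.31), Slc22a7 (−1.93 ± 0.55) and the bile acid carrier Slc10a1 (−1.96 ± 0.28). Of 12 other exporters Slc51b, a basolateral bile acid exporter, and Abcc5 were called higher (1.82 ± 0.57 and 1.45 ± 0.49). The xenobiotic receptor Nr1i3 was called higher (1.66 ± 0.31) and the bile acid responsive repressor Nr0b2 lower (−1.69 ± 0.58), while of the target enzymes Nqo1, an antioxidant response gene, was called higher (2.54 ± 0.21) and 4 were lower, among them Cyp8b1 (−3.07 ± 0.47), Cyp2c29 (−2.53 ± 0.54) and Cyp3a25 (−1.96 ± 0.56). In the PHx comparisons Abcg5 was called higher at 21 d (1.27 ± 0.42), and Slc22a7 (−1.18 ± 0.38) and Slco2a1 (−1.15 ± 0.50) lower at 21 d.

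Over the 30 batch 2 libraries the genes with the most similar profile were described by Pearson's r of log2(CPM + 1) among 12773 genes, without a test, since livers share batch, sex and genotype. Slco1a1 was closest to Hsd3b5 (0.90), a male-specific steroid dehydrogenase, Scp2 (0.89) and Mug1 (0.88). Slco1a4 was closest to Serpina6 (0.76), the corticosteroid-binding globulin, and Slco1b2 to Slc16a10 (0.84), Sord (0.84) and Cyp2e1 (0.80), the pericentral ethanol-oxidizing enzyme. Abcb4 was closest to Adrm1 (0.86). For Abcc2, alone among the 9 members, the nearest gene was another member, Slco1b2 (0.73), and the nearest genes of Slco2b1, Abcc3, Abcc4 and Abcb1a had r of 0.67 to 0.71.

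Batch 1 counts were made without regard to strand, and the setting for batch 2 is not given in the sources used here. Slco1a1, Slco2b1, Abcc3 and Abcb4 share exonic bases with the opposite-strand predicted genes Gm30843, Gm34280, Gm51871 and Gm31388, so reads of each gene and its partner cannot be told apart where they overlap.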

How the data were processed

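Whole liver RNA was sequenced with single-end reads in 48 grouped libraries. The deposited counts are whole numbers of reads per gene symbol, made by the authors with Trim Galore per the processing notes (Sickle in the study's methods), STAR 2.5.0a and featureCounts (1.5.0-p1 and 1.5.0-p3 in the processing notes) on mm10, unstranded per the file headers of batch 1; the annotation used for batch 2 is not given in the sources used here. Groups came from the labels and sex from the study's sample list. Members and gene lists were chosen with earlier results of these data known. Symbols shared by both batches were kept and CPM were computed from their totals. Comparisons used edgeR 4.0.16 (limma 3.58.1, R 4.3.3) with TMM scaling and quasi-likelihood tests, Benjamini-Hochberg adjusted over all genes tested.

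Genes with CPM above 1 in at least 3 libraries were tested (12848 undamaged, 12773 PHx with 1M, 12608 batch 1), and for CCl4 those with CPM of at least 1 in at least 6 of 11 libraries (11358). Models held genotype by condition, with sex where both occurred and batch where both were fitted. Genes were called at adjusted p under 0.1 and absolute log2 fold change above 1, and for R&Zdel against R&Zflox after PHx at unadjusted p under 0.05 with the same fold limit, as in the study. All 9 members were tested in every comparison, but the values of some are not given in each. Of other lists up to 4 called genes were named, by size of change, and of the genes most like a member up to 3, by r. Intervals of zero counts cover counting error only. Scripts were tested on simulated data. Alternatives were DESeq2 1.42.0, its size factors, edgeR's likelihood ratio test, no filter, only the groups compared, no sex term, males alone, each batch alone, other placements of libraries with conflicting labels, no fold limit, a replicate block and each library left out; scaling by total counts, 1 library taken as female and the settings of sex in the batch 1 fit were chosen after seeing the data. The 5 libraries whose labels conflict were left ungrouped, 4 of them not analysed here, and 2 labelled samples were not analysed here. In the list of other uptake carriers 1 gene is not reported here and is left out of its counts.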

Additional observations from a re-analysis of the deposited data

Results flagged for a closer look

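In groups of 4 or 5 livers, 6 of 45 tests for a far sample, which chance alone passes in about 1 in 20, set a library apart. These were an R&Zdel 7M liver of batch 2 with 626 CPM of Slco1a1 (the next value was 295 CPM) and 2097 CPM of Slco1b2 (next 1033 CPM), another R&Zdel 7M liver with 184 CPM of Abcb4 (next 145 CPM), an R&Zdel 1M liver with 296 CPM of Abcc2 (next 237 CPM), an R&Zflox 3M liver with 84.1 CPM of Slco2b1 (next 121 CPM) and another R&Zflox 3M liver with 25.8 CPM of Abcc4 (next 1.24 CPM). The 3M and 7M groups hold both batches.

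The effect of CCl4 at 4 d differed between R&Zdel and R&Zflox, by edgeR's interaction test, for Slco1a1 (−5.93 on the log2 scale, adjusted p = 0.0018), Slco1b2 (−1.30, adjusted p = 0.0287), Slco2b1 (−1.49, adjusted p = 0.0085) and Abcc4 (2.63, adjusted p = 0.0136). The undamaged reference was the 3M and 7M livers of batch 1, collected later after deletion than the 4 d livers. Without the female R&Zflox 7M liver the value of Slco1a1 was −2.85 and that of Abcc4 1.73, and in males alone they were −3.19 and 2.17. Slco1b2 lost its pass without the first R&Zflox or the second R&Zdel liver at 4 d and with scaling by total counts (−0.68, adjusted p = 0.122). The summed cholangiocyte markers moved with it, at 3673 to 6554 CPM in R&Zdel against 99.3 to 172 CPM in R&Zflox. So did the sex-biased genes, of which the male-biased summed to 4242 to 4799 CPM against 9127 to 9859 CPM and the female-biased to 156 to 506 CPM against 3.12 to 15.8 CPM. The part of either was not tested.

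A library whose title places it among the CCl4 livers, its characteristics among undamaged R&Zflox 3M livers and the study's sample list among R&Zdel 3M livers, and which therefore has no group here, held 158 CPM of Slco1a4, 169 CPM of Slco2b1 and 3.66 CPM of Abcb1a, each above the highest of the 14 undamaged R&Zflox livers (132, 161 and 2.78 CPM). The library is listed as female, with 60 CPM of Xist and 0.0801 CPM of the Y-linked genes, whereas 11 of those 14 livers were male, and its Slco1a4 stood beside 84.8, 120 and 132 CPM in the 3 females. Abcc4 in this library was at 14.7 CPM. That lay above the undamaged R&Zflox livers of batch 1 (at most 4.59 CPM) and below 1 such liver of batch 2 at 25.8 CPM.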

How the results depend on the processing

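Of 3148 values of the members under alternative settings, 53 lost and 27 gained a pass of the p limit, the fold limit left aside. Of the others 4 reversed and 3064 were counted as unchanged. A reversal was counted only where the reported value passed or had an unadjusted p under 0.05. Values counted as unchanged can thus have changed sign or crossed the fold limit. The log2 fold change of Slco1a1 at 3M, 1.33, became −0.31 with no sex term and ranged from −0.0934 (without the female R&Zdel liver) to 2.52 over the livers left out. Slco1a1 after CCl4 in R&Zflox ranged from −2.33 to 1.20, the latter without the male R&Zflox 7M liver, which leaves the female as the 7M reference. Abcc2 after CCl4 in R&Zdel was −0.64 and 0.0789 with scaling by total counts. The number of members called went from 0 to 1 at 3M in batch 1 alone, at 7M and in the sex by genotype test with DESeq2, and in PHx against 1M in R&Zflox at 7 d with DESeq2 or no filter. With the adjusted p alone it was 2 in the undamaged average, 5 at CCl4 4 d, 1 at PHx 7 d and 4 after CCl4 in R&Zflox. Scaling by total counts gave 2 at PHx 7 d, 2 at PHx 21 d and 2 in CCl4 by genotype, against 0, 1 and 4. After CCl4 in R&Zflox no sex term gave 1. Leaving out single livers gave 0 to 1 at CCl4 170 d, 0 to 2 at PHx 7 d, 1 to 2 at PHx 21 d and 0 to 2 after CCl4 in R&Zflox, where 0 came without the second R&Zflox liver at 4 d. The PHx 7 d liver taken as female gave 1. The cause of these moves was not tested beyond what each setting removes.

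Counts of all genes called moved more: CCl4 4 d had 1729, and 2956 with no filter, 2623 with only its groups, 2965 with total counts and 3135 with no fold limit; the undamaged average had 154, and 362 with DESeq2, 249 with the likelihood ratio test, 232 with no filter and 332 with no fold limit; 1M, 3M and 7M had 56, 29 and 58, and 297, 132 and 92 with DESeq2; sex had 118, and 312 with DESeq2; CCl4 170 d had 71, and 600 with no filter and 291 with DESeq2, and 50 d had 634, and 1671 and 1044; PHx 21 d had 838, and 540 with only its groups; CCl4 in R&Zflox had 642, and 1298 with no filter; CCl4 by genotype had 2173, and 3497 with total counts, 1133 in males and 868 to 2612 over the livers left out.

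At 1M and after PHx the replicate numbers of the labels did not pair the livers. The correlation of deviations of equal numbers was −0.078 to −0.045 at 1M and −0.066 to −0.003 after PHx. It was 0.33 at CCl4 4 d and −0.357 at CCl4 170 d. These groups held 2 livers each, whose deviations from the group mean mirror each other, so these values cannot show or exclude a pairing. With the replicate number as a block, 1 member was called at PHx 7 d (Slco1a1, 1.05), and the number was 0 at 1M, 3 at CCl4 4 d, 0 at 170 d and 1 at PHx 21 d as without it. Abcc4 and Abcb1a had few counts in batch 2, with medians of 19.5 and 8.5.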
